A study of Rattus norvegicus with 6 samples.

Results

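The 300 promoter regions with the highest ratio of immunoprecipitated to input DNA (IP/input) were examined in rat lumbar spinal cord, out of 9112 regions in which that ratio could be averaged over at least 3 probes with a clear input signal. The ratio came from methylated DNA immunoprecipitation (MeDIP) on 6 two-colour promoter arrays. A region was a run of 3 to 99 probes lying under 1000 bp from each other on chromosomes 1 to 20. A probe was kept when its input signal was well above background on all 6 arrays, which held for 52760 of 164271 probes (32.1%). Each log2 ratio was set against the median of kept probes of the same length on the same array, so that 0 is a typical probe and 1 is a ratio 2-fold above it. The 300 regions were chosen for their mean over the 6 arrays. Their high level is therefore a description, and only what the choice did not use was compared. Coordinates are those of the rat assembly rn4, and the nearby genes were not analysed here.

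The tissue came from male rats of 220 to 250 g on day 14 after surgery. In 3 rats the surgery was a sham procedure, and 3 rats had chronic constriction injury (CCI). CCI is a model of neuropathic pain in which loose ligatures are tied around the sciatic nerve, whose fibres enter the lumbar cord. Each array held 1 animal, with the IP labelled with Cy5 (red) and the same animal's input labelled with Cy3 (green), and the dyes were not swapped. The labels name no strain and no antibody.

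MeDIP uses an antibody against 5-methylcytosine to pull down methylated fragments, so that a stretch with many methylated CpG sites gives a high IP/input ratio. In vertebrate genomes promoters rich in CpG sites are mostly unmethylated, while promoters with fewer CpG sites, and those of genes silenced for good, are often methylated. A pulled-down fragment usually spans more than a single probe of a tiled promoter, and neighbouring probes of a methylated stretch would then be read together. Tissue DNA mixes neurons, glia and other cells, and a shift in the mix of cells cannot be told apart from a change within a cell type.

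The arrays were alike in the IP and unlike in the input. Between 117726 and 122646 probes on chromosomes 1 to 20 were well above background in the IP. In the input that number ran from 59976 on sham 1 and 61865 on CCI 3 to 114992 on CCI 2, and a probe had to be bright on all 6 arrays to be kept. Region ratios correlated between every pair of arrays at a Pearson r of 0.915 to 0.980 over the 9112 regions, which share the arrays and are not independent. The 3 sham arrays and CCI 3 lay on slide 1, and CCI 1 and CCI 2 lay on slide 2, as read from shared scan times in the file headers. The precision is limited by the number of arrays, 3 in each group.

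The 300 regions had mean ratios from 0.79 to 1.598 with a median of 0.92, that is, 1.72-fold, 3.03-fold and 1.89-fold above the typical probe for the lowest, the highest and the median region. The other 8812 regions had a median of -0.09. Of the 300, 97 stood 2-fold or more above the typical probe. All 300 were above 0 on all 6 arrays, and 299 were above 0.5 on all 6. The exception was chr13:66465814-66467531, at 0.50 on CCI 3. The list began without a gap: the last 3 regions inside it, chr14:82636541-82638241, chr4:8861210-8862978 and chr7:36683223-36684920, had means of 0.789, 0.788 and 0.786, and the first 3 outside it, chr14:34984334-34985926, chr8:113243530-113245216 and chr7:28061620-28063237, had 0.785 each.

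**Figure D1:**
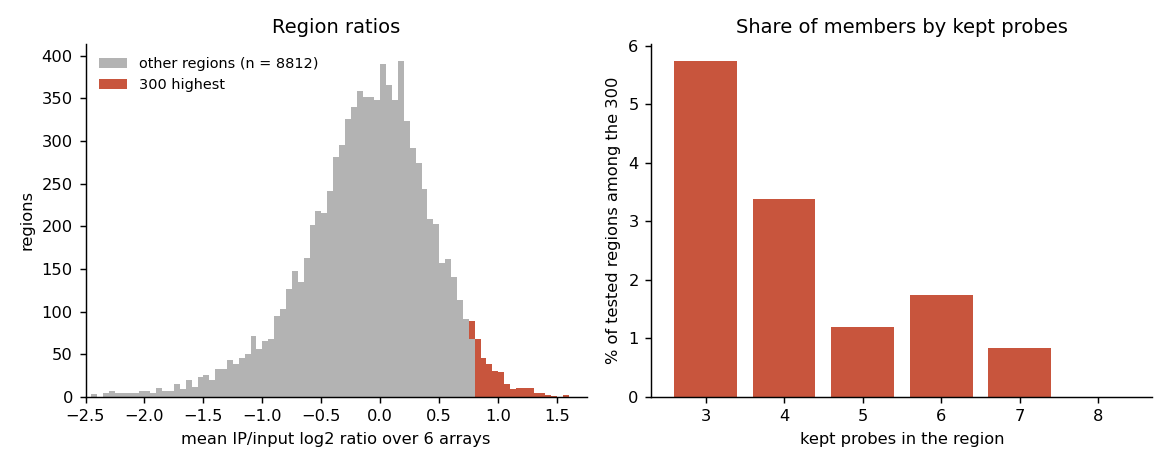
Left, the number of regions (vertical axis) by their mean IP/input log2 ratio over 6 arrays (horizontal axis, bins of 0.05), with the 300 highest stacked in red on the other 8812 in grey; 38 regions below -2.5 are not drawn. Right, the percentage of tested regions that belong to the 300, by the number of kept probes averaged in the region. The red regions are the upper end of a continuous distribution, and the share falls from 5.74% of regions with 3 kept probes to 0% of those with 8.

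The region with the highest mean was chr19:47610549-47611223, 675 bp long with 3 of its 5 probes kept. Its log2 ratios were 1.50, 1.68 and 1.79 on sham 1, 2 and 3 and 1.57, 1.37 and 1.67 on CCI 1, 2 and 3. The sham and CCI values overlapped, with CCI 2 lowest and sham 3 highest. The next, chr6:108681293-108682934, with 3 of 7 probes kept, stood at 1.52, 1.91 and 1.88 in sham and 1.40, 1.40 and 1.40 in CCI. Here the CCI arrays lay close together and below all 3 sham arrays. In chr16:18527019-18528725, with 3 of 9 probes kept, the values were 1.35, 1.50 and 1.58 in sham and 1.53, 1.37 and 1.51 in CCI. The groups overlapped almost fully in that region.

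The other regions of the 10 highest had means from 1.35 to 1.43. In chr4:123681201-123682800 the values were 1.16, 1.57 and 1.59 in sham and 1.45, 1.27 and 1.56 in CCI, with sham 1 the lowest. In chr1:134301640-134303343 they were 1.50, 1.49 and 1.31 in sham and 1.48, 1.46 and 1.29 in CCI. Both groups there had 1 array below the other 2, sham 3 and CCI 3. In chr19:14554298-14554986 CCI 3 was the highest at 1.62 and CCI 1 the lowest at 1.22, with the sham arrays between them at 1.37, 1.39 and 1.49. In chr5:160289877-160291569 5 arrays lay between 1.34 and 1.37 and sham 1 stood at 1.56. In chr1:84367413-84368930 5 arrays lay between 1.37 and 1.44 and sham 3 stood at 1.18. In chr9:10395060-10396764, with 5 of 10 probes kept, the sham values were 1.26, 1.56 and 1.59 and the CCI values 1.19, 1.21 and 1.43. The tenth, chr11:67811335-67812989, was the most even of the 10, from 1.30 on CCI 3 to 1.46 on sham 2. The array that stood lowest or highest thus changed from region to region.

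**Figure D2:**
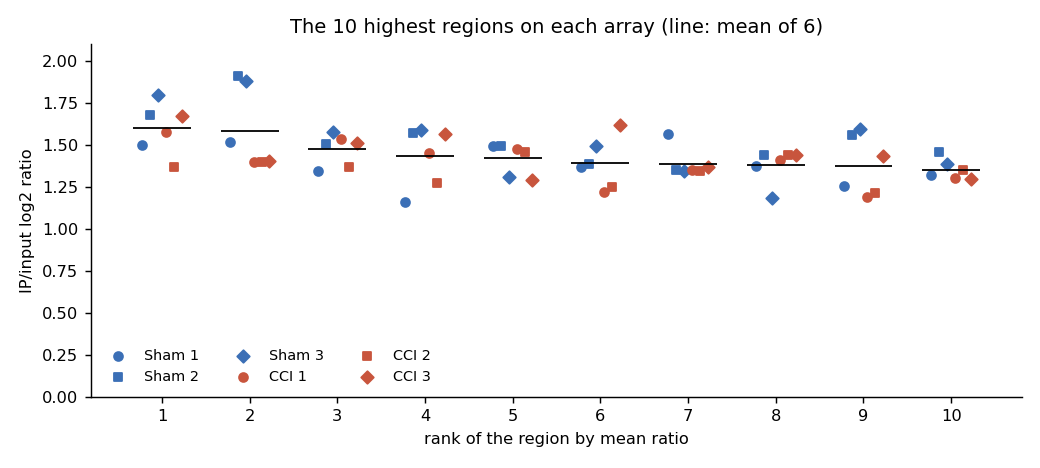
The IP/input log2 ratio (vertical axis) of the 10 highest regions, ordered by rank (horizontal axis), on the 3 sham arrays (blue) and the 3 CCI arrays (red), 1 symbol per array; the line is the mean of the 6. Values lie between 1.16 and 1.91, and the groups fail to overlap in the region of rank 2 alone among these 10.

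Each array enters the mean that chose the list, so the overlaps that follow are a description and no test of how stable membership is. When each array was ranked on its own, its 300 highest regions held between 223 (sham 1) and 253 (CCI 2) of the 300, and 125 of the 300 were among the highest on all 6 arrays. No region outside the list was among the 300 highest on all 6. The spread of a region over the 6 arrays had a median SD of 0.11 in the 300 and in the other regions (0.115 and 0.107). The steadiest of the 300 was chr14:79552316-79554031 (6 of 11 probes kept), at 0.86, 0.79 and 0.86 in sham and 0.90, 0.82 and 0.88 in CCI. The least steady was chr3:95326649-95328423 (3 of 10 kept), at 0.61, 0.86 and 1.19 in sham and 0.77, 0.85 and 1.64 in CCI, where sham 3 and CCI 3 were the high arrays.

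A high ratio can come from a bright IP or from a dim input, and both were present. With each channel set against the median of its probe length, the 300 regions had a median IP of 0.48 and a median input of -0.28 log2 units, against 0.01 and 0.27 in the other regions. In 168 of the 300 (56.0%, against 5.87% of all regions) the IP was above and the input below the median for its length. In 85 (28.3%, against 45.9%) the IP was above the median and the input at or above it. In 47 (15.7%, against 29.4%) the IP was at or below the median and the input below it. The classes are made of the 2 values whose difference chose the list, so their shares are a description. The region of rank 10, chr11:67811335-67812989, belonged to that last class, with an IP of -0.23 and an input of -1.38, the lowest input of the 300. At the other end, chr15:24437494-24438990 had the brightest IP of the 300, at 2.02, with an input of 1.11. The 300 regions were not those with the brightest IP: 15 of them were among the 300 highest by IP alone, and 36 were among the 300 lowest by input alone. Over the 300 regions IP and input went up together, at a Spearman rho of 0.939, a description over regions that share their arrays and that were chosen on the difference of the 2 values.

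**Figure D3:**
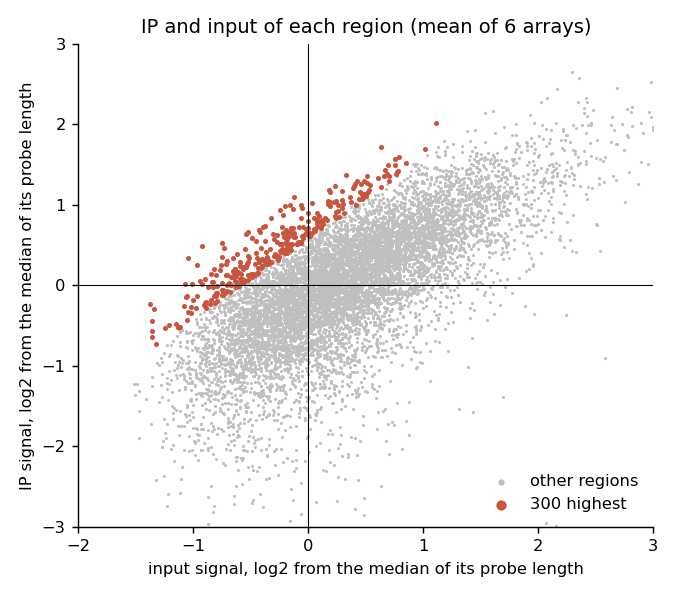
The IP signal (vertical axis) against the input signal (horizontal axis) of each region, in log2 units from the median of kept probes of the same length, as the mean of 6 arrays; the 300 regions are red and the other tested regions grey, and 30 regions outside the axes, none of them among the 300, are not drawn. The red points form the upper edge of the cloud along its whole length, from an input of -1.38 to 1.11, and do not gather where the IP is brightest.

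The probes left out of the choice give a reading of the same regions that the choice did not use. The 300 regions held 1095 kept probes and 1861 probes left out because their input was not well above background on every array. Averaged per region and set against all probes of their length, the left-out probes of the 300 regions had a median ratio of 0.03, and those of the other regions 0.02. Of 299 regions with left-out probes, 154 (51.5%) had a left-out mean above 0, against 51.1% of the other regions, and 31 (10.4%) had one at or above the lowest mean of the 300, against 10.4%. Dim probes give uncertain ratios, so the comparison was repeated with the values of left-out probes that were well above background in both channels on the array in question. The median of the 300 regions minus that of the other regions was then -0.02, 0.04 and 0.04 on sham 1, 2 and 3 and -0.10, -0.0047 and -0.06 on CCI 1, 2 and 3, with 105 to 936 values per array from the 300 regions. It was thus above 0 on 2 of 6 arrays and never further than 0.10 from it, where the kept probes of the 300 regions stood 0.92 above the typical probe.

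Kept probes of a region also differed widely among themselves. The lowest and the highest kept probe of a region had medians of 0.25 and 1.69 over the 300, against -1.10 and 0.86 over the other regions. Of the 300, 94 (31.3%) held a kept probe below 0, against 92.9% of all tested regions. The SD of kept probes within a region had a median of 0.68 in the 300 and 0.87 in the others. The list was chosen on the mean of these same probes, so these values describe it and test nothing. Across all tested regions, neighbouring kept probes, whose starts lay 245 bp apart at the median, had a Spearman rho of 0.0451 over 31645 pairs, and 0.0592 where the starts lay within 200 bp. Single kept probes correlated between arrays at a Pearson r of 0.915 to 0.977, so each probe gave nearly the same ratio in every animal while its neighbour gave another. In the 6117 regions with 4 or more kept probes, the 300 with the highest mean of their odd-numbered kept probes had a median of 1.05 in those probes and of 0.07 in the even-numbered ones. All 6117 regions had a median of -0.04 in the even-numbered probes. These are descriptions over probes that share arrays and animals. By these measurements the 300 regions are the highest in their kept probes, and their left-out probes stood near those of the other regions. Left-out probes have a dimmer input by the rule, and whether the regions are methylated was not tested. The 300 are therefore called highest-ratio regions here and not methylated regions.

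The probes of the highest regions differed in the same way, with the limit that the ratios of dim left-out probes are uncertain. In chr19:47610549-47611223 the kept probes had 6-array means of 2.05, 1.53 and 1.22, and the 2 left-out probes 0.86 and -1.82. Both left-out probes were well above background in both channels on 0 arrays. In chr16:18527019-18528725 the 3 kept probes lay side by side at one end with 1.595, 0.81 and 2.02, and the 6 left-out probes ran from -3.10 to 2.36. The lowest of these was well above background in both channels on 0 arrays and the highest on 3. In chr5:160289877-160291569 the probe at one end stood at -0.42, below the typical probe, and the next kept one at 2.14. The region chr11:67811335-67812989 differed from these, with all 7 left-out probes above 0, from 0.24 to 1.27. The lowest of the 7 was well above background in both channels on 0 arrays and the highest on 3. Among the 10, chr11:67811335-67812989 and chr19:14554298-14554986, which had 1 left-out probe at 1.45, were the only ones without a probe below 0.

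**Figure D4:**
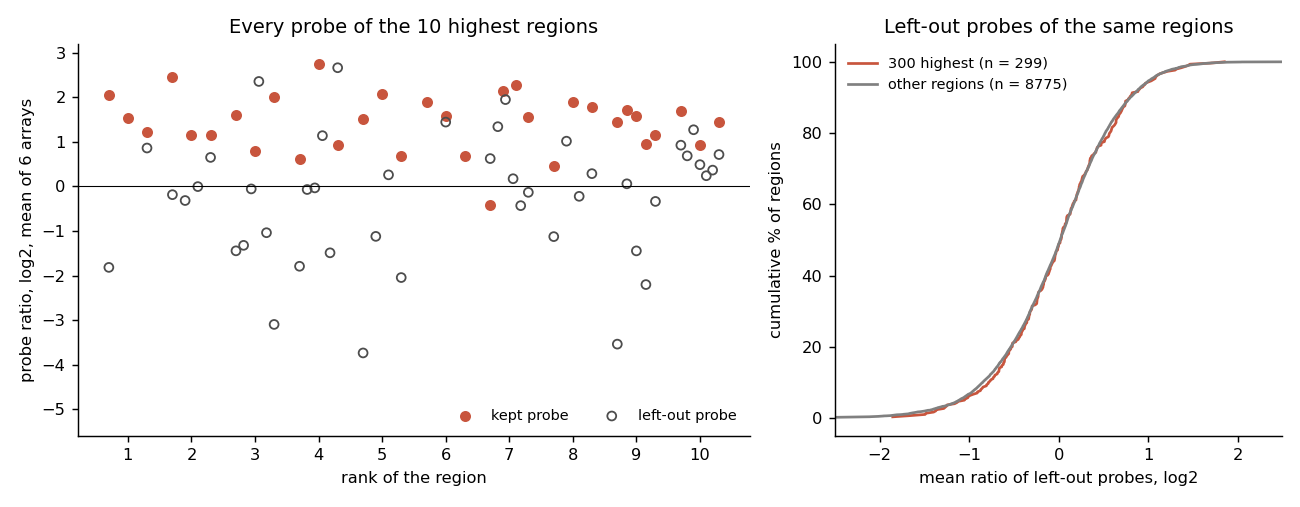
Left, the 6-array mean log2 ratio of every probe (vertical axis) of the 10 highest regions (horizontal axis, rank), with kept probes filled red and left-out probes open. Right, the cumulative percentage of regions (vertical axis) by the mean ratio of their left-out probes (horizontal axis) for 299 of the 300 regions (red) and 8775 other regions (grey), with 19 other regions beyond 2.5 log2 units not drawn. Left-out probes of the highest regions reach from below -3 to above 2, and the 2 curves on the right lie on each other, with medians of 0.03 and 0.02. The left-out probes below -3 were well above background in both channels on 0 arrays, so their ratios are uncertain.

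Regions averaged over few probes were frequent in the list. Of the 300, 172 had 3 kept probes and 86 had 4, together 86.0%, against 60.8% of all tested regions, and none had 8 or more. The share of tested regions that entered the list was 5.74% with 3 kept probes, 3.38% with 4, 1.20% with 5, 1.73% with 6 and 0.837% with 7. The 3 regions of the list with the most kept probes were chosen as those with the highest means of the 4 that had 7. They were chr16:7972193-7974428, at 1.12, 1.00 and 1.17 in sham and 0.99, 0.94 and 1.19 in CCI, chr9:71839186-71840848, with a mean of 0.88 ± 0.05 (SD, n = 6), and chr12:9803308-9804871. In the last, all 7 kept probes were above 0, from 0.33 to 1.31, while in chr9:71839186-71840848 they ran from -0.82 to 2.25. In chr12:9803308-9804871 the sham values were 0.88, 0.89 and 0.87 and the CCI values 0.75, 0.72 and 0.74, which did not overlap, with an unadjusted p of 0.0566 and an adjusted p of 1.00 in limma.

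In size and place the regions resembled the others. They held a median of 10 probes over 1672 bp, against 10 probes over 1679 bp. Their probes were slightly longer, with a median region mean of 47.9 nt against 47.3 nt. The percentage of a region's probes at the shortest length of 45 nt had a median of 57.1% against 63.2%. Every one of the 20 chromosomes held at least 6 of the 300. The share of tested regions in the list was highest on chromosome 18 (13 of 216, 6.02%) and chromosome 15 (15 of 275, 5.45%) and lowest on chromosome 14 (6 of 296, 2.03%). Over all chromosomes it was 300 of 9112, and the differences between chromosomes were not tested. The highest region of chromosome 18 was chr18:995159-996773, at 1.31, 1.35 and 1.44 in sham and 1.02, 1.16 and 1.59 in CCI.

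Runs of neighbouring regions were counted in the list, which held 300 of the 9112 tested regions, and their number was not tested. There were 10 runs of 2 or more that followed each other with no other tested region between them, and they held 21 of the 300. The longest run was 3 regions within 50980 bp on chromosome 10. The first, chr10:84731527-84733175, stood at 1.04, 0.80 and 0.95 in sham and 0.94, 0.85 and 0.98 in CCI. The second, chr10:84747969-84749425, had 0.52, 1.18 and 1.27 in sham and 0.73, 0.83 and 0.99 in CCI, and the third, chr10:84781032-84782506, had 0.83, 1.19 and 1.30 in sham and 0.90, 0.86 and 1.34 in CCI. Sham 1 was the highest array in the first of these and the lowest in the other two. The mean of the 2 tested regions flanking a member had a median of -0.11, against -0.09 around the other regions.

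The comparison the study was built for, CCI against sham, does not enter the choice of the regions and was tested over all 9112 regions. None of the 300 passed: with a threshold of 0.05 on the adjusted p, limma called 0 of the 300 and 0 of all 9112 (0%), the smallest value being 1.00. At an unadjusted p under 0.05, limma gave 1 of the 300 higher in CCI, against 1.57% of all regions, and 13 lower (4.33%), against 1.65%. All CCI arrays lay above all sham arrays in 3 of the 300 (1.00%), against 5.47% of all regions, and below them in 26 (8.67%), against 4.12%. The 300 differed by -0.05 log2 units at the median, against 0.00 for all regions. Of the 300, 91 (30.3%) were higher in CCI, against 50.6% of all regions. The half-width of a region's unadjusted 95% interval had a median of 0.20 log2 units over the 300 and ran from 0.147 to 0.513.

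That lean went with the slide and with the width of each array's ratios. The median of the 300 was 0.93, 0.97 and 0.96 on sham 1, 2 and 3, 0.88 and 0.87 on CCI 1 and CCI 2, both on slide 2, and 0.98 on CCI 3, which shared slide 1 with the sham arrays and was the highest of the 6. The interquartile range of all region ratios was 0.667 and 0.636 on CCI 1 and CCI 2 and 0.685 to 0.715 on the 4 arrays of slide 1. When the arrays were brought to one width, the median difference of the 300 came near that of all regions. It was 0.0065 with quantile normalization, against 0.0059 for all regions, and 0.0059 with scaling, against -0.0032. Within slide 1, where CCI 3 is the only CCI array, it was 0.028, against 0.0096 for all regions. With quantile normalization 22 of the 300 were without overlap higher in CCI, against 5.55% of all regions, and 11 lower, against 3.69%. With scaling, chosen after the data were seen, these were 21 higher, against 4.70%, and 10 lower, against 4.52%. At an unadjusted p under 0.05, limma then gave 6 of the 300 in each direction with either method, against 1.51% higher and 1.67% lower with quantile normalization and 1.19% and 2.38% with scaling. The part of the slide and of the width in the result was not tested. Slide 2 held no sham array, so slide and group cannot be told apart there.

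**Figure D5:**
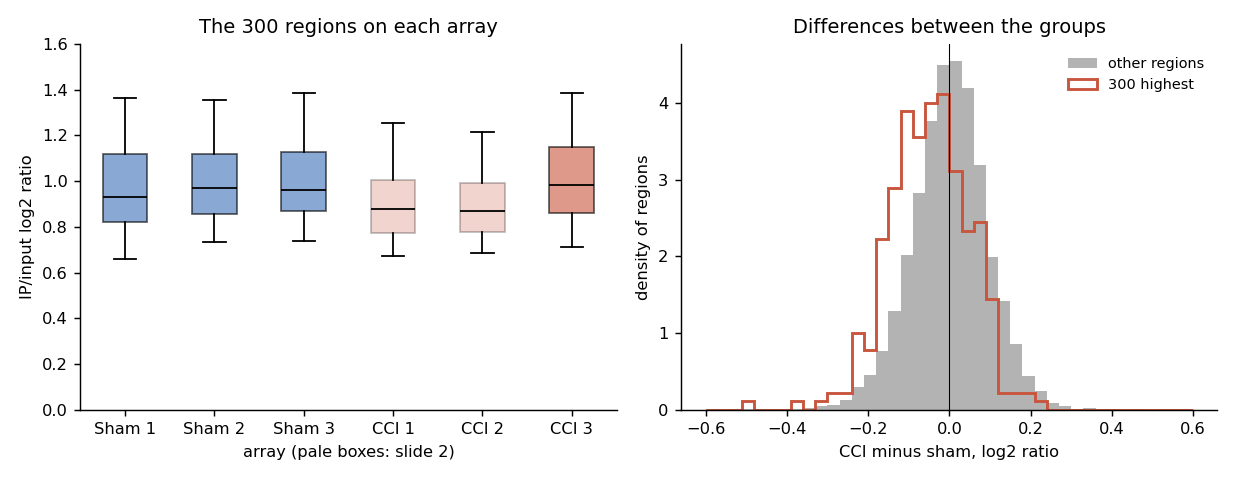
Left, the IP/input log2 ratio (vertical axis) of the 300 regions on each array, with the median as a line, the box spanning the interquartile range and whiskers at the 5th and 95th percentiles; sham arrays are blue, CCI arrays red, and the pale boxes are the arrays of slide 2. Right, the density of regions (vertical axis) by the CCI minus sham difference (horizontal axis) for the 300 (red line) and the other regions (grey), with 1 other region beyond 0.6 not drawn. The 2 arrays of slide 2 have the lowest medians, 0.88 and 0.87, and the red outline lies to the left of the grey one, with a median of -0.05.

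Since no region passed, those with the lowest p in each direction among the regions without overlap are given by their values. The 5 with lower CCI values were led by chr5:53471988-53478710, in which 3 of 27 probes over 6723 bp were kept. Its ratios were 1.11, 1.20 and 1.21 in sham and 0.57, 0.63 and 0.81 in CCI, a difference of -0.50 ± 0.08 (SE) with an unadjusted p of 0.000192 and an adjusted p of 1.00 in limma. Its IP differed by -0.05 between the groups and its input by 0.43. With all of its probes, dim ones included, the difference was 0.10. In chr2:198164112-198165818 the ratios were 0.97, 0.93 and 1.05 in sham and 0.54, 0.63 and 0.81 in CCI, a difference of -0.32. The IP there differed by -5.1e-05 and the input by 0.29.

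The other 3 followed the same division between channels. The region of rank 2, chr6:108681293-108682934, differed by -0.37 in the ratio, by -0.02 in the IP and by 0.32 in the input. In chr13:43347841-43349586, at 1.129, 1.199 and 1.103 in sham and 0.81, 1.00 and 0.76 in CCI, the ratio differed by -0.29 and the input by 0.21. In chr1:95603007-95604690, at 0.87, 0.99 and 0.90 in sham and 0.70, 0.66 and 0.69 in CCI, the ratio differed by -0.24 and the input by 0.22. Among the 26 regions without overlap and lower in CCI, the input was higher in CCI in 25 (against 43.4% of all regions), and its difference was larger than that of the IP in 22 (84.6%, against 67.1% of all regions). A lower ratio selects for a higher input, so these counts are a description of the 26 and no test. A ratio takes in the error of both channels, and over the 300 regions the median SD between the 6 arrays was 0.04 in the IP and 0.12 in the input.

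The regions without overlap and higher in CCI were 3 in all. In chr15:24437494-24438990, the one with the brightest IP, the ratios were 0.96, 1.02 and 0.95 in sham and 1.18, 1.13 and 1.27 in CCI, a difference of 0.22 ± 0.07 (SE) with an unadjusted p of 0.0141 and an adjusted p of 1.00 in limma. Its IP differed by 0.05 and its input by -0.20, and with the median of its probes in place of the mean the difference was -0.05. In chr8:124689959-124691571, at 0.75, 0.74 and 0.74 in sham and 0.84, 0.88 and 0.94 in CCI, the IP differed by 0.16 and the input by -0.02, so that this region, unlike those above, differed mainly in the IP. With all of its probes its ratio differed by -0.01. In chr10:108999372-109001080 the ratios were 0.74, 0.87 and 0.88 in sham and 0.96, 0.89 and 0.90 in CCI, a difference of 0.09 with an unadjusted p of 0.268 and an adjusted p of 1.00 in limma. Its IP differed by 0.06 and its input by -0.04, so the IP held the larger part here too.

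The IP channel by itself varied less between arrays and was tested in the same way. With the same threshold, limma called 25 of the 9112 (0.274%) in the IP and 0 of the 300. At an unadjusted p under 0.05 limma gave 17 of the 300 (5.67%) with a brighter IP in CCI, against 14.3% of all regions, and 35 (11.7%) with a dimmer one, against 5.06%. In sham the median IP of the 300 was 0.491 ± 0.00817 and the median input -0.299 ± 0.0282 (SD, n = 3). In CCI they were 0.475 ± 0.0117 and -0.302 ± 0.0519 (SD, n = 3). An IP signal without its input also carries the amount and labelling of DNA on each array, of which only the median was removed.

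Some other fits of the same ratios called regions, and of those given here only the fit with array weights called any of the 300. With slide as a block limma called 4 regions (0.0439%) and on slide 1 alone 3 (0.0329%), with 0 of the 300 in both. Both of these set CCI 3 alone against the 3 sham arrays, since slide 2 holds no sham array, and they take that lone array to vary like the others. Without CCI 3 limma called a single region (0.011%) and 0 of the 300. With weights for the arrays it called 717 regions (7.87%), 36 of them among the 300 (12.0%). At an unadjusted p under 0.05 the weighted limma fit gave 10 of the 300 higher and 100 lower in CCI, against 15.1% and 15.6% of all regions. These weights ran from 0.193 on sham 1 to 4.81 on CCI 2, so that sham 2 and CCI 2 held most of the weight. With the replicate number as a block, limma gave 1 of the 300 higher and 27 lower at an unadjusted p under 0.05, against 2.64% and 3.27%, and called 0 of the 300 and 0 of all 9112 at an adjusted p under 0.05.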

How the data were processed

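Per the file headers, the authors' files were Agilent Feature Extraction 11.0.1.1 output with processed intensity per probe and channel, already background-subtracted and scaled per dye, on an rn4 design. Background, saturation and outlier flags, per the file headers, were used as deposited. Log2 ratios of processed red over green were centred per array and probe length, averaged per region, and compared between CCI and sham without a block (R 4.3.3, limma 3.58.1, functions lmFit and eBayes), with Benjamini-Hochberg adjustment over 9112 regions and a threshold of 0.05. The fit was tested on simulated data. Python 3.11.15 and matplotlib 3.10.9 made the figures. The members, lists and tests were chosen with earlier results of these data known. Regions were named by rank, the limit of the list, kept probes, p without overlap, longest run, the chromosome with the highest share, and SD. The normexp alternative took median signals with an offset of 50. Alternatives covered probes, centring, normalization, blocks, weights and each array left out. Scaling, slide 1 alone and the checks on left-out and odd-numbered probes were added after seeing the data. Gene lists and sequence were not used here, since the tables at hand were on another genome build.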

Additional observations from a re-analysis of the deposited data

How the results depend on the processing

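Membership of the list depended on the channel and on the probes averaged. Of the 300, 299 were again among the 300 highest with outlier spots left out, with quantile normalization and with scaling, 286 with probes bright in both channels, 264 with 1 median per array, 240 with normexp, 224 with loess, 183 with the median of probes, 32 with all probes, 34 with all probes and 1 median per array, and 15 with the IP alone. The counts between CCI and sham moved as follows. Regions called by limma rose from 0 to 4 with slide as a block, 3 on slide 1 alone, 25 in the IP alone and 717 with array weights (7.87%), which also called 36 of the 300 (12.0%). Of the 300, those at an unadjusted p under 0.05 went from 14 to 4 with all probes, 6 with all probes and 1 median, 7 with normexp, 2 of 42 with 5 kept probes, 28 with the replicate block (1 higher, 27 lower), 110 with array weights and 52 in the IP alone. Counts over all regions moved as well. At the same limma p, 143 of 9112 were higher and 150 lower in the main fit, and 157 and 75 with normexp. With all probes they were 162 and 207 of 15284, and 77 and 323 with 1 median. With 5 kept probes they were 53 and 41 of 3570. Those without overlap went from 29 to 13, 18 and 2 with all probes, all probes and 1 median, and 5 kept probes, and rose to 81 in the IP alone and 158 on slide 1, where a lone CCI array makes overlap rare by construction. Of the 158 on slide 1, 100 were higher in CCI and 58 lower. Over all 9112 regions, 498 were without overlap higher in CCI and 375 lower in the main fit. These were 1544 and 712 in the IP alone, and 2401 and 2048 on slide 1. With all probes they were 561 and 523 of 15284, with 1 median 386 and 718, and with 5 kept probes 186 and 147 of 3570. Without 1 array, limma called 0 regions, or 1 without CCI 3, and 0 of the 300. Of the 300, 9 to 35 were then at an unadjusted limma p under 0.05. Without sham 1, 2 were higher and 33 lower, against 344 and 468 of all 9112. Without CCI 3 these were 1 and 32 (195 and 247), and without CCI 2, 2 and 7 (44 and 88). They were 1 and 8 without sham 3 (204 and 124) or CCI 1 (70 and 85). Those without overlap ran from 7 and 35 without CCI 1 (768 and 624) to 7 and 81 without CCI 3 (1046 and 979). The median difference ran from -0.08 (without CCI 3) to -0.03. The median difference of the 300 turned to 0.0065 with quantile normalization, 0.0059 with scaling, and 0.028 both for the slide block and within slide 1, which both rest on CCI 3 as the only CCI array. For all regions the median was 0.0059 with quantile normalization, -0.0032 with scaling, and 0.0096 for the slide block and within slide 1. Of the 8 named differences, 3 kept their sign in every setting. The others turned: chr15:24437494-24438990 to -0.054 and chr10:108999372-109001080 to -0.00029 with the median of probes, chr8:124689959-124691571 to -0.0060 and -0.030 and chr5:53471988-53478710 to 0.10 and 0.027 with all probes, centred by length or by 1 median, and chr1:95603007-95604690 to 0.011 in the IP alone. Their causes were not tested. The labels do not say that equal replicate numbers share a litter, day or slide, so the numbers were not taken as pairs. Deviations of same-numbered sham and CCI arrays correlated at 0.418, -0.129 and 0.489. Those of arrays with different numbers ran from -0.465 (sham 1 and CCI 3) to 0.229 (sham 1 and CCI 2).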

Other observations

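The X chromosome, unplaced sequence and windows of 100 or more probes were outside the choice of regions. Centred on the same medians, 10 of 250 regions on the X chromosome (4%) and 2 of 64 unplaced regions (3.13%) with 3 or more bright probes reached the lowest mean of the 300, and so did 1 of 89 long windows (1.12%). The highest X region stood at 1.50 and the median X region at 0.01.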
